A study of Mus musculus with 7 samples.

Results

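The aquaporins are membrane channels that let water, and for some members glycerol and other small solutes, pass along a gradient. The 10 genes Aqp1, Aqp2, Aqp3, Aqp4, Aqp5, Aqp6, Aqp7, Aqp8, Aqp9 and Aqp11 were taken by name from the deposited table, out of 21341 protein-coding genes with an entry there. To profile metabolically active tissues, total RNA depleted of ribosomal RNA was sequenced from cortex, kidney, liver, skeletal muscle and 3 adipose tissues: visceral (VAT), subcutaneous (SCAT) and interscapular brown (BAT). Every tissue came from wild-type (wt) C57BL/6 mice (C57BL/6N in the study's methods) of 36 weeks of age on the diet labelled NCD, with no other genotype, agent or diet in the comparison. Each tissue is 1 library, so no difference between tissues has a replicate check, no p-value was computed, and the folds below describe these 7 libraries. The labels do not say whether a library holds 1 animal or a pool. The deposited unit is FPKM, which relates fragments to the length of the transcript and the size of the library, and because no fragment counts were given, the depth behind each value is unknown.

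In each aquaporin, membrane-spanning helices surround a narrow pore. Short loops, which in most members carry the signature Asn-Pro-Ala, meet in its middle and help to keep protons out. The orthodox water channels (Aqp1, Aqp2, Aqp4, Aqp5, Aqp6 and Aqp8 by sequence) are known chiefly for moving water, although Aqp6 is known more for passing anions, the aquaglyceroporins (Aqp3, Aqp7 and Aqp9) also pass glycerol, and Aqp11 belongs to a distant branch found inside the cell. The kidney concentrates urine through several of them, adipocytes release glycerol from stored fat through Aqp7, and hepatocytes take glycerol up through Aqp9 to make glucose.

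The codons of the signature boxes are shown for 6 members because they mark the family and differ in Aqp7 and Aqp11, with the 9 bases of the signature in capitals inside a window of 27 bases, 5′ to 3′ on the coding strand. They were read from GENCODE transcripts of GRCm38, and each window lies within a single coding exon. Aqp1 and Aqp2 lead in kidney, Aqp8, Aqp9 and Aqp11 in liver and Aqp7 in BAT.
Aqp1 box 1, exon 1, chr6:55336707-55336733, plus strand: gctcacctcAACCCTGCGgtcacactg
Aqp1 box 2, exon 3, chr6:55345828-55345854, plus strand: tgcggtatcAACCCTGCCcggtcattt
Aqp2 box 1, exon 1, chr15:99579345-99579371, plus strand: gcccacatcAACCCTGCTgtgactgtg
Aqp2 box 2, exon 3, chr15:99583115-99583141, plus strand: tgctccatgAATCCAGCCcgctccctg
Aqp8 box 1, exon 3, chr7:123464193-123464219, plus strand: ggacacttcAACCCTGCTgtgtcgctg
Aqp8 box 2, exon 5, chr7:123466602-123466628, plus strand: gcctgcatgAACCCTGCTcgtgccttt
Aqp9 box 1, exon 3, chr9:71132732-71132758, minus strand: ggccacatcAACCCAGCGgtgtctttt
Aqp9 box 2, exon 5, chr9:71122841-71122867, minus strand: tgtgccatgAACCCTGCTcgagacctc
Aqp7 box 1, exon 5, chr4:41035602-41035628, minus strand: gcccacatgAATGCCGCAgtgactttc
Aqp7 box 2, exon 7, chr4:41034804-41034830, minus strand: tatgcaatcAACCCATCCcgtgacctg
Aqp11 box 1, exon 1, chr7:97737676-97737702, minus strand: acagctagcAACCCGTGCggcgtgatg
Aqp11 box 2, exon 2, chr7:97729044-97729070, minus strand: gcattgtttAACCCAGCGctggcactt

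Of the 18 boxes read in 9 members, 15 encoded Asn-Pro-Ala. The exceptions were both boxes of Aqp7 and the box in exon 1 of Aqp11. Translated coding sequences were most alike for Aqp2 and Aqp5, with 65.8% identical residues over the 260 aligned, followed by Aqp2 and Aqp6 with 57.8%. Among the aquaglyceroporins, identity was 45.7% between Aqp3 and Aqp9, 45.2% between Aqp3 and Aqp7 and 44.2% between Aqp7 and Aqp9. Aqp11 shared between 25.8% and 30.1% of residues with the other members. Aqp2, Aqp5 and Aqp6 lie in a row within 26.4 kb of chromosome 15, and Aqp7 and Aqp3 lie 44.6 kb apart on chromosome 4. Of the row on chromosome 15, Aqp2 and Aqp6 both led in kidney with VAT next, at 44.1 and 2.05 FPKM in kidney, and Aqp5 had 0.0651 FPKM there. On chromosome 4, Aqp3 led in kidney and Aqp7 in BAT.

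Markers of each labelled tissue were present, except that Alb in liver and Myh4 in skeletal muscle have no usable value because the table gives them as zeros with the Cuffdiff status LOWDATA, taken here as missing. Liver had 2521 FPKM of Apoa1, kidney 505 of Slc34a1, cortex 215 of Snap25, skeletal muscle 1175 of Myh1 and BAT 6552 of Ucp1, and Lep, the leptin gene, had 51.6 FPKM in VAT and 26.6 in SCAT. VAT and SCAT also held genes of other organs, epididymal in VAT and pancreatic and lymphocyte genes in SCAT, and the leads that these libraries set are given with and without them. A gene was counted as expressed at 1 FPKM or more in any tissue. This held for 9 of the 10 aquaporins and for 69.9% of all protein-coding genes in the table, the exception being Aqp5. Enrichment in a tissue required at least 1 FPKM there and a log2(FPKM + 0.1) at least 2, or 4-fold, above that of every other tissue. Aqp2, Aqp3, Aqp8 and Aqp9 met this rule, 4 of the 9 expressed members, beside 21.4% of the expressed protein-coding genes. In kidney the rule was met by Aqp2 and Aqp3, 2 of 9, beside a background of 2.49%. In liver it was met by Aqp8 and Aqp9, again 2 of 9, beside 3.39%. With so few members these shares rest on single genes. Without the VAT library, Aqp6 also met the rule in kidney and Aqp7 in BAT, which gave 6 of 9 members in any tissue beside 22.4% and 3 of 9 in kidney beside 2.94%. The index tau, which is 0 for a gene at 1 level in all tissues and 1 for a gene found in a single tissue, had a median of 0.840 over the 9 expressed aquaporins and of 0.266 over the 14928 expressed protein-coding genes. Without VAT, SCAT or both, these medians ranged from 0.825 to 0.892 and from 0.237 to 0.260.

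**Figure D1:**
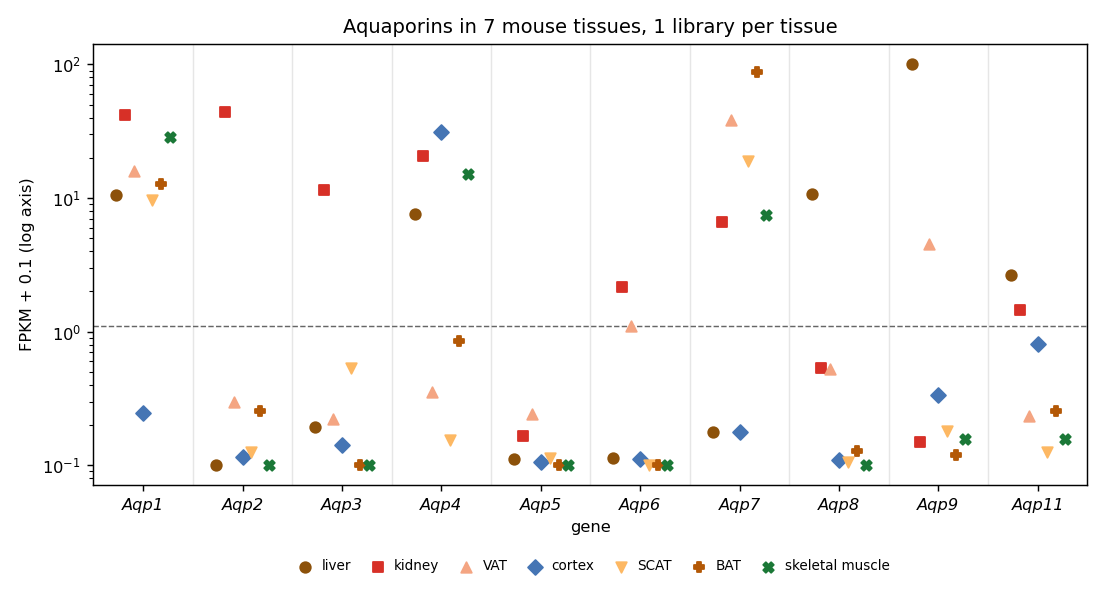
Level of each aquaporin (horizontal axis) in each of the 7 tissues, as FPKM + 0.1 on a log axis, with 1 point per library and no error bars because there are no replicates. The dashed line marks 1 FPKM. Aqp2, Aqp3, Aqp6 and Aqp8 have a single tissue above it, whereas Aqp1 has 6 and Aqp7 has 5.

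The family as a whole was carried by a different member from tissue to tissue. Summed over the 10 genes, FPKM was 132 in liver, 128 in kidney, 102 in BAT, 60.9 in VAT, 51.1 in skeletal muscle, 32.6 in cortex and 28.8 in SCAT. The order of the sums was not firm. Upper quartile scaling placed kidney above liver and SCAT above skeletal muscle, and both scalings tried placed SCAT above cortex. Loci on the annotated strand alone placed BAT above kidney and SCAT above cortex. Aqp9 made up 76.2% of the sum in liver, Aqp4 96.2% in cortex and Aqp1 55.7% in skeletal muscle. Aqp7 was the largest component of all 3 adipose tissues, with 86.4% of the sum in BAT, 64.9% in SCAT and 62.9% in VAT. Kidney had no such dominant member, as Aqp2 took 34.4% and Aqp1 32.7%, followed by Aqp4 with 15.9% and Aqp3 with 8.90%. Grouped by role, the aquaglyceroporins held 86.4% of the sum in BAT, 76.4% in liver, 70.4% in VAT and 66.6% in SCAT, but no more than 14.6% in skeletal muscle and kidney and 1.09% in cortex.

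Several of these shares rest on loci that the table's order places opposite to the annotated gene. On the annotated strand alone, a comparison added after the data were seen, Aqp4 made up 59.3% of the sum in cortex, with Aqp11 at 28.2%, and 4.29% in skeletal muscle in place of 29.5%. Kidney was then led by Aqp1 with 37.9%, followed by Aqp2 with 28.6%, Aqp3 with 16.9% and Aqp7 with 9.60%, and Aqp4 fell to 2.33%. The aquaglyceroporins held 27.4% in skeletal muscle, 26.5% in kidney and 9.40% in cortex. The same member remained the largest in the other 6 tissues, with Aqp9 at 83.2% in liver, Aqp1 at 67.1% in skeletal muscle and Aqp7 at 91.0% in BAT, 75.5% in SCAT and 72.2% in VAT.

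**Figure D2:**
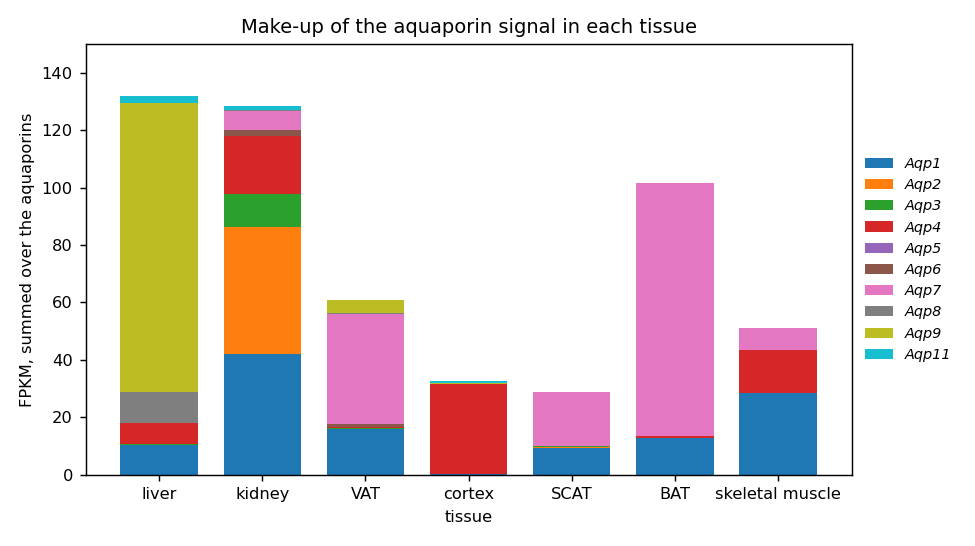
FPKM summed over the 10 aquaporins (vertical axis, from 0) in each tissue, with 1 color per gene and 1 library per bar. Aqp9 fills most of the liver bar, Aqp7 most of the 3 adipose bars and Aqp4 nearly all of the cortex bar, while kidney is divided between Aqp1, Aqp2, Aqp4 and Aqp3.

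Aqp1, the water channel of proximal tubule, thin limb, capillary endothelium and red blood cells, was the most widespread member. Its locus on chromosome 6 (chr6:55335976-55350328) had 42.1 FPKM in kidney, 28.5 in skeletal muscle, 15.9 in VAT, 12.7 in BAT, 10.5 in liver, 9.49 in SCAT and 0.144 in cortex. Thus 6 of 7 tissues lay above 1 FPKM and within a few fold of each other, and cortex alone lay 65.8-fold below the next tissue. Kidney led skeletal muscle by a log2 ratio of 0.56. Neighbors in the order of the 6 tissues differed by 1.10-fold to 1.79-fold, and under both scalings of the libraries SCAT rose above liver and BAT. Endothelial markers were likewise lowest in cortex: their 6 genes summed to 6.08 FPKM there and to between 29.9 and 83.2 FPKM elsewhere, with all 6 at 1 FPKM or more in the other tissues and 3 in cortex. The erythroid list summed to 161 FPKM in cortex and to between 840 and 2411 FPKM elsewhere, and 5 of its 6 genes were at 1 FPKM or more in every tissue. In tissue RNA, fewer cells of a type and less RNA per cell cannot be told apart, and the part of these cell types in the Aqp1 levels was not tested. Proximal tubule markers, with 899 FPKM summed over 4 genes in kidney, were at no more than 5.62 FPKM elsewhere. Profiles were compared by the Euclidean distance over the 7 tissues on the log2(FPKM + 0.1) scale. The genes nearest to Aqp1 in profile were Tgm2, Bgn and Angptl2, at distances of 2.30, 2.39 and 2.47, and all 3 were likewise lowest in cortex, at 0.459 to 0.703 FPKM.

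Aqp2, which vasopressin moves to the apical membrane of collecting duct principal cells, had the largest lead of the family with all 7 libraries. At chr15:99578620-99587365 it had 44.1 FPKM in kidney, 0.198 in VAT, 0.155 in BAT, 0.0259 in SCAT and 0.0156 in cortex, and was listed at 0 in liver and skeletal muscle. Only kidney stood above 1 FPKM, and it lay 223-fold above VAT, a log2 ratio of 7.21 on the log2(FPKM + 0.1) scale, which understates leads over low values. Without the VAT library the lead was 7.44, and that of Aqp9 was larger. The nearest profiles were those of Cyp2j11, a cytochrome P450 gene, the amino acid transporter gene Slc7a9 and Slc22a22, at distances of 1.45, 1.71 and 1.78, with 45.7, 31.5 and 34.1 FPKM in kidney.

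Aqp3, the glycerol-permeable channel of the opposite, basolateral face of the same cells, had 11.4 FPKM in kidney. It had 0.437 FPKM in SCAT, 0.120 in VAT, 0.0919 in liver and 0.0431 in cortex, and was listed at 0 in BAT and skeletal muscle (chr4:41092722-41098200). Kidney was again the only tissue above 1 FPKM, 26.2-fold above SCAT, with a log2 ratio of 4.43. Without the SCAT library the lead rose to 5.71. Its nearest profiles were those of Fcamr, Gcnt1 and Lpar3, at distances of 1.10, 1.52 and 1.60, with 9.67, 7.29 and 5.47 FPKM in kidney. In kidney Aqp2 thus stood at a higher level per transcript length than Aqp3.

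Genes of vasopressin action and urine concentration were listed beside them. Of 17 genes, 16 were at 1 FPKM or more in any tissue, 15 of them in kidney, and 4 met the enrichment rule in kidney, beside the background of 2.49%. Of the 17, 6 led in kidney, 3 in liver, 3 in BAT, 2 in cortex, 2 in SCAT and 1 in skeletal muscle. The highest in kidney were Slc12a1, the salt transporter of the thick ascending limb, with 139 FPKM, Slc12a3, that of the distal convoluted tubule, with 79.2, and the urea transporter gene Slc14a2 with 22.2. Outside kidney, Slc14a2 at no more than 0.524. Avpr2, the vasopressin receptor of principal cells, had 1.11 FPKM in kidney and 8.12 in SCAT, and was named after its values were seen. Of the 5 principal cell markers, 3 led in kidney, beside 10.6% of the expressed protein-coding genes.

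Aqp6, a channel of intracellular vesicles in acid-secreting intercalated cells, was low but followed a pattern of its own. It had 2.05 FPKM in kidney and 0.994 in VAT, then 0.0144 in liver and 0.0115 in cortex, and was listed at 0 in SCAT, BAT and skeletal muscle (chr15:99601213-99605486). Kidney and VAT stood apart from the other tissues, with VAT 69.1-fold above liver, and kidney led VAT by only 2.07-fold (log2 ratio 0.98). Without the VAT library the lead was 4.24. The gene with the most similar profile over the 7 tissues was Foxi1, the forkhead factor of intercalated cells, at a distance of 0.39. Foxi1 had 1.70 FPKM in kidney, 0.805 in VAT and at most 0.0123 elsewhere. Ttll10 and Marveld3 followed at 0.64 and 0.66. All 5 intercalated cell markers were at 1 FPKM or more in kidney and 1 of them, Atp6v0d2 with 4.46 FPKM, in VAT. There Atp6v1b1 had 0.464 FPKM, Slc4a1 0.276 and Slc26a4 0.00358, against 10.5, 6.21 and 12.2 FPKM in kidney. The VAT library also held epididymal genes, whose list of 8 summed to 2644 FPKM there and to at most 34.4 elsewhere. Crisp1, merged in the table with its paralog Crisp3, had 1386 FPKM, Lcn5 1119 and Adam7 134, and 4 of the 8 were at 1 FPKM or more, whereas Lcn9 and Cst11 were listed at 0. The part of this RNA in the VAT level of Aqp6 was not tested.

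Aqp5, the water channel of salivary, lacrimal and airway glands, was not expressed by the 1 FPKM rule. Its single locus (chr15:99590849-99598555) had 0.143 FPKM in VAT, 0.0651 in kidney, 0.0128 in SCAT, 0.0111 in liver and 0.00626 in cortex, and was listed at 0 in BAT and skeletal muscle. No tissue came near the level of its neighbors Aqp2 and Aqp6 in kidney, and at unknown depth the order of these values cannot be read. Of 7 salivary gland genes in the table, Amy1 and Klk1 alone reached 1 FPKM, and the secretory genes Bpifa2, Smgc and Dcpp1 were at no more than 0.121 FPKM in any tissue.

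Aqp8, a water channel of hepatocytes, intestine and pancreas, was enriched in liver. It had 10.6 FPKM in liver, 0.439 in kidney, 0.423 in VAT, 0.0286 in BAT, 0.00884 in cortex and 0.00536 in SCAT, and was listed at 0 in skeletal muscle (chr7:123461958-123468005). Liver lay 24.2-fold above kidney, a log2 ratio of 4.32. Kidney and VAT, the next tissues, differed by 1.04-fold. Its nearest profiles were those of Cyp2b9, a cytochrome P450 gene, Slc17a4 and the xenobiotic receptor gene Nr1i2, at distances of 0.73, 1.01 and 1.30. All 3 also led in liver, at 7.96, 8.76 and 11.9 FPKM.

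Aqp9, through which hepatocytes take up glycerol, reached the highest value of any aquaporin in any tissue. Its locus (chr9:71108141-71208124) had 101 FPKM in liver, 4.45 in VAT, 0.235 in cortex, 0.0791 in SCAT, 0.0570 in skeletal muscle, 0.0496 in kidney and 0.0201 in BAT. Liver lay 22.6-fold above VAT, and VAT lay 19.0-fold above cortex, so that both tissues stood apart from the other 5. The log2 ratio of liver over its next tissue was 4.47, and 8.23 without the VAT library. Liver genes in general were detected in VAT, where all 4 hepatocyte markers were at 1 FPKM or more, but VAT was not alone in this: 3 of the 4 were so in kidney and in skeletal muscle, and Cyp2e1 had 331 FPKM in kidney and 295 in VAT. For 202 protein-coding genes enriched in liver with at least 100 FPKM there, the median VAT level was 1.10% of the liver level, with quartiles of 0.665% and 5.47%. Aqp9 had 4.42% of its liver level in VAT and 57 of the 202 genes had more. The enrichment rule that chose these genes itself sets VAT at least 4-fold below liver on its scale, and Aqp9 is among them. Aqp8 had 3.98%, while the hepatocyte marker Apoa1 had 0.701%, Ttr 0.850% and Cyp2e1 6.41%. Aqp9 is also known from the epithelium of the epididymis, whose genes were in this library as given for Aqp6, and the part of either source was not tested. The genes nearest in profile were Tat, of tyrosine breakdown, Otc, of the urea cycle, and Hsd17b13, of lipid droplets, at distances of 1.85 to 1.98. They had 159, 278 and 205 FPKM in liver.

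Aqp7, the glycerol exit channel of adipocytes, marked the 3 adipose tissues in these libraries. At chr4:40970906-41048139, a merged locus that reaches beyond the annotated gene and over Nfx1 on the other strand, it had 87.8 FPKM in BAT, 38.3 in VAT, 18.7 in SCAT, 7.41 in skeletal muscle and 6.51 in kidney. Cortex and liver had 0.0782 and 0.0764 FPKM. BAT, VAT and SCAT held the top places, with steps of 2.29-fold from BAT to VAT, 2.05-fold from VAT to SCAT and 2.52-fold from SCAT to skeletal muscle, while skeletal muscle and kidney differed by 1.14-fold and changed places under both scalings. The log2 ratio of BAT over VAT, 1.20, missed the enrichment rule. It was 0.50 after upper quartile scaling, 2.22 over SCAT when the VAT library was left out, and 3.55 when VAT and SCAT were both left out. Adipocyte markers also appeared outside adipose tissue. Their 4 genes summed to between 415 and 1419 FPKM in the adipose tissues, 49.9 in skeletal muscle, 7.03 in kidney and 1.34 in cortex, with Adipoq at 14.1 FPKM in skeletal muscle and 1.34 in kidney. In liver the sum of 15.4 FPKM was nearly all Cidec (15.3), and Adipoq was at 0.152. Whether fat in the muscle and kidney samples contributed to their Aqp7 was not tested. The nearest profile to Aqp7 was that of Tmem45b, at a distance of 1.48, with 52.6 FPKM in VAT, 41.1 in BAT and 22.5 in SCAT. Slc1a5, an amino acid transporter gene, and Pmepa1 followed at 3.17 and 3.45.

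**Figure D3:**
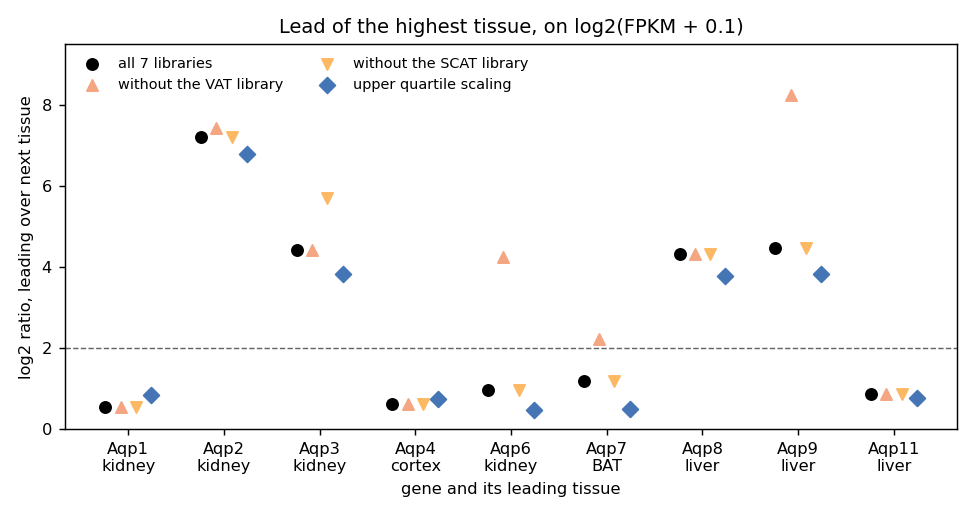
Log2 ratio of the leading tissue over the next tissue on log2(FPKM + 0.1) for the 9 expressed aquaporins, each named with its leading tissue, from all 7 libraries, without the VAT or SCAT library, and after upper quartile scaling. The dashed line is the 4-fold threshold: Aqp2, Aqp3, Aqp8 and Aqp9 lie above it in all 4 settings, and Aqp6 and Aqp7 do so only when VAT is left out.

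Genes of glycerol release and use were highest in BAT. All 10 genes of the list were at 1 FPKM or more in BAT. Of these, 9 led there, beside 15.1% of the expressed protein-coding genes, and 2 met the enrichment rule there, beside 0.757%. The highest in BAT were Pck1, an enzyme of glucose and glycerol synthesis, with 1226 FPKM, Gpd1, which links glycerol phosphate to glycolysis, with 865, and Mgll, the monoglyceride lipase that frees glycerol, with 321. Their VAT levels were 236, 15.4 and 108 FPKM. In liver, where Aqp9 leads, the highest of the list were Pck1 with 568 FPKM, glycerol kinase (Gk) with 156 and Mgll with 97.1. Kidney, with 0.0496 FPKM of Aqp9, had more Pck1 (930) and Gk (246) than liver, and less Mgll (13.3). Gk had 277 FPKM in BAT, a log2 ratio of 0.17 over kidney. It had 24.8 FPKM in VAT and 1.97 in SCAT, a wider spread over the adipose tissues than that of Aqp7.

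Aqp4, the water channel of astrocyte end-feet, of collecting duct and of fast muscle fibers, was shared between cortex, kidney, skeletal muscle and liver. At chr18:15388998-15403684 it had 31.4 FPKM in cortex, 20.4 in kidney, 15.1 in skeletal muscle, 7.47 in liver, 0.745 in BAT, 0.253 in VAT and 0.0559 in SCAT. The 4 leading tissues followed each other in steps of 1.54-fold, 1.35-fold and 2.02-fold before the drop from liver to BAT. Cortex led kidney by a log2 ratio of 0.62. The nearest profiles, of Sel1l3, Morn4 and the chloride channel gene Clcn2, were at distances of 3.37, 3.51 and 3.56. The order of the 4 leading tissues held under both scalings, the sum of loci and the annotated strand alone. At the locus on the annotated strand, Aqp4 had 2.24 FPKM in cortex, 1.58 in kidney and 1.17 in skeletal muscle. Liver had 0.509 FPKM there and fell under the 1 FPKM rule. In the BAT library, all 5 muscle fiber markers in the table were at 1 FPKM or more, with 166 FPKM for Ckm and 307 for Tnnt3, and their part in its Aqp4 was not tested. Among 9 genes of the dystrophin complex and other anchors of Aqp4, 8 were expressed, 3 led in skeletal muscle, beside 24.0% of the expressed protein-coding genes, and 2 in cortex, beside 21.1%. In skeletal muscle, Dmd (dystrophin) had 82.9 FPKM and Dtna (dystrobrevin) 44.8, followed by Utrn (utrophin) with 7.63 among the genes reported here. The highest in cortex were Dmd with 29.6, Dtnb with 20.8 and Dtna with 18.8. Astrocyte markers differed among themselves: Slc1a2 had 93.6 FPKM in cortex (and 35.6 in liver), Gfap 91.5 and Slc1a3 32.0, but Gja1, which astrocytes express, had 1.19, Aldh1l1 had 8.04 against 144 in liver and 89.6 in kidney, and the anchor list's potassium channel gene Kcnj10 had 0.0818. These low values were singled out after they were seen. Whether a low FPKM under a name in this table means that the RNA was lacking was not tested.

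Aqp11, an intracellular member whose loss in mice is known to give polycystic kidneys, was low. Its locus (chr7:97721794-97738304) had 2.57 FPKM in liver, 1.36 in kidney, 0.712 in cortex, 0.155 in BAT, 0.136 in VAT, 0.0586 in skeletal muscle and 0.0258 in SCAT. Liver and kidney passed 1 FPKM, with a log2 ratio of 0.87 between them. The lead of liver over kidney was 1.89-fold, and 1.24-fold at the locus on the annotated strand, where cortex also passed with 1.07 FPKM. Its nearest profiles were those of Fbxl21, Arhgef19 and Sall1, a kidney development factor, at distances of 1.28, 1.58 and 1.71. All 3 were also highest in liver, at 1.98, 3.49 and 2.40 FPKM.

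The table lists 22 loci under the names of the 10 members, with more than 1 for 8 of them, and the one with the highest FPKM was used. The table has no strand column, and strand was read from the order of its loci. Over the whole table, the strand read in this way matched the annotation for 75.3% of 62045 pairs of locus and name. By that reading the used locus lies opposite to the annotated gene for 5 members, Aqp1, Aqp2, Aqp4, Aqp6 and Aqp11. All 12 further loci led in the same tissue as the used locus. For Aqp11 the further locus was near the used one in liver, with 2.53 against 2.57 FPKM. It was higher in kidney, with 2.04 against 1.36 FPKM, and in SCAT, with 0.399 against 0.0258. For Aqp1 the further locus held between 53.9% and 65.5% of the used one in the 6 tissues above 1 FPKM, with 25.7 FPKM in kidney and 18.3 in skeletal muscle. For Aqp4 it held between 6.81% and 7.77% in 4 tissues, with 2.24 FPKM in cortex. The larger further locus of Aqp9 had 88.3 FPKM in liver and 3.98 in VAT, and that of Aqp2 had 19.4 FPKM in kidney. The levels therefore depend on which locus is read, while for the 5 further loci with more than 1 tissue at 1 FPKM or more at the used locus, the order of those tissues was the same. Below 1 FPKM the order did change, as for Aqp8, where a further locus had 0.139 FPKM in kidney and 0.239 in VAT. On the annotated strand alone, Aqp6 had 0.589 FPKM in kidney and fell under the 1 FPKM rule. The sums in cortex and skeletal muscle were then 3.79 and 27.3 FPKM, and that in kidney was 67.8.

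**Figure D4:**
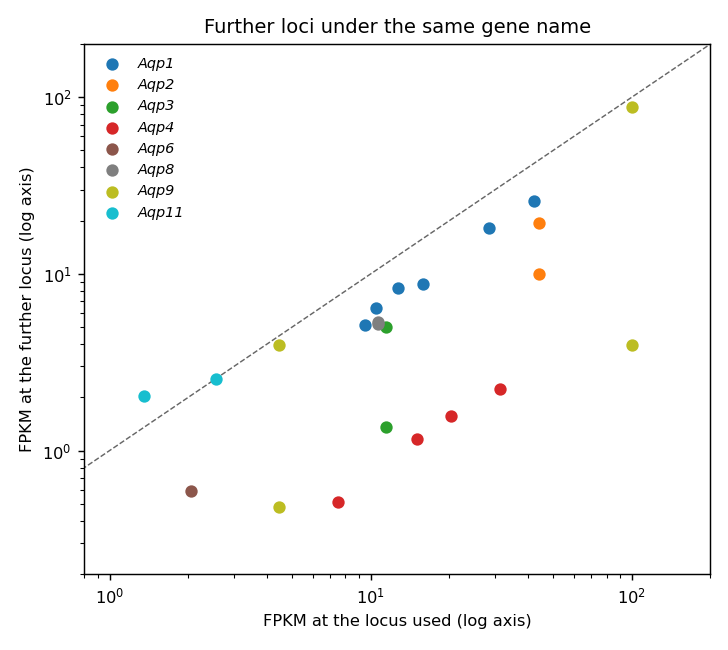
FPKM at each further locus (vertical log axis) against the locus used (horizontal log axis) for the 8 aquaporins with several loci, with 1 point for each tissue in which the used locus had at least 1 FPKM and the dashed line marking equal values. Points of Aqp1 run parallel to the line at 53.9% to 65.5%, points of Aqp4 lie far below it at 6.81% to 7.77%, and 1 point of Aqp11 lies above it.

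Over all members, 23 pairs of tissues that follow each other in the order of levels had the higher tissue at 1 FPKM or more. In 21 of them the order was the same as deposited, under both scalings, with loci summed and on the annotated strand alone. The 2 that turned were liver and SCAT for Aqp1 and skeletal muscle and kidney for Aqp7. Tissues further apart in the order were not counted, and some of these turned too, as BAT and SCAT for Aqp1 under both scalings. Of the 23 pairs, 10 differed by less than 2-fold and, with 1 library per tissue, no spread shows whether such steps would recur.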

How the data were processed

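According to the labels and methods, the authors removed rRNA reads with Bowtie2 (2.2.9), aligned to GRCm38 with STAR (2.6.0c), assembled and merged transcripts with Cufflinks (2.2.1) and ran Cuffdiff. Its settings for strand and scaling are not given in the sources used here. The authors deposited FPKM for 94339 loci in 21 tissue comparisons. Deposited columns of log2 fold change, test statistic, p-value, q-value and significance were not used.

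Genes were matched by name to GENCODE vM21 (91.9% of 50354 names). The 151 loci with status FAIL were left out, 225 zeros with status LOWDATA were taken as missing, and none of either belonged to a member. Of several loci the one with the highest maximum FPKM was used. Values were compared as log2(FPKM + 0.1). The enrichment rule was checked on simulated data. Coordinates are merged loci counted from 1.

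Named were all members, the 3 nearest profiles of each expressed member, the 3 highest genes of each list in its tissue, further family genes, and markers. An item of the lists is not reported here. Others were chosen after their values were seen. Members and lists were chosen with earlier results of these data known. Sequences were aligned with Biopython 1.88 (BLOSUM62, gap opening 10, extension 0.5, end gaps free). Python 3.11.15, pandas 2.3.3, NumPy 2.4.6 and matplotlib 3.10.9 were used.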

Additional observations from a re-analysis of the deposited data

How the results depend on the processing

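No paired analysis was possible because no tissue had a replicate library. Of 16 alternatives, 3 touched no locus of a member (failed loci kept, LOWDATA zeros as 0, loci with a second name left out). Over the other 13, all 39 recomputed counts of expressed or enriched aquaporins stayed within 1.5 times. Aqp2, Aqp3, Aqp8 and Aqp9 were enriched in all of them, joined by Aqp7 under a 2-fold rule and by Aqp6 and Aqp7 when VAT was left out, alone or with SCAT. Of 88 log2 ratios of a leading tissue, 73 moved by less than 1.5-fold, 8 rose by more, 7 fell by more and 0 changed sign. Another pseudocount or the removal of a library other than the leading one could not turn a sign. Only the scalings, the sum of loci and the annotated strand could have done so. A pseudocount of 1 lowered those of Aqp2, Aqp3 and Aqp8 to 5.24, 3.11 and 3.02. Of 28 sums, 23 stayed within 1.5 times, and summing all loci gave 244 FPKM in liver and 194 in kidney. On the log2 scale, all values shifted under the median ratio scaling by 0.43 in SCAT, 0.29 in VAT, 0.18 in cortex, -0.20 in BAT and -0.27 in skeletal muscle. Under the upper quartile scaling the shifts were 0.57 in SCAT, 0.43 in VAT, -0.12 in kidney, -0.23 in liver, -0.27 in BAT and -0.40 in skeletal muscle. Depth is unknown, so how many fragments stand behind a low FPKM cannot be said.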

Other observations

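Further genes of the family were near the bottom of the scale. Mip, the water channel of the eye lens, had at most 0.0844 FPKM (cortex). Aqp12, known from pancreatic acinar cells, had 0.00877 FPKM in VAT, 0.00669 in SCAT and 0 in the other 5 tissues. The pseudogene Aqp10-ps had at most 0.377 FPKM (VAT), at a locus far longer than the annotated gene.

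The SCAT library held genes of pancreatic acinar cells, 7 of 8 of them at 1 FPKM or more, with Ctrb1 at 35.9 FPKM and Cpa1 at 29.9. Its Aqp8, which that tissue is also known to express, was at 0.00536 FPKM and its Aqp12 at 0.00669. Lymphocyte genes were in SCAT too, all 4 at 1 FPKM or more, with Ms4a1 at 50.6 FPKM. In VAT, the mesothelial list summed to 16.8 FPKM, against at most 4.50 elsewhere. Of its 5 genes, 4 led in VAT, and Msln led in cortex with 4.06 FPKM against 0.560 in VAT. The highest in VAT was Krt19 with 6.83 FPKM, which is also listed as a bile duct marker. Of 4 keratinocyte genes, Krt14 and Krt5, which other epithelia share, had 2.58 and 2.48 FPKM in VAT, Krt10 had 0.726 and Lor 0.00644.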
